A study of Rattus norvegicus with 2 samples.

Results

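Lung chemokine signals of the CC family and the receptors that monocytes carry were followed through every cell type of 2 rat lung libraries. The set holds 8 genes of the 42172 listed in each library, chosen by symbol: the ligands Ccl2, Ccl3, Ccl4, Ccl7 and Ccl20 and the receptors Ccr1, Ccr2 and Cx3cr1. All 8 were listed and all had unique molecular identifiers (UMIs, 1 per captured mRNA molecule) in both libraries. They were chosen by name, not by their values. The files give these genes by symbol alone.

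The study set rats exposed to a gas explosion beside unexposed control rats and profiled dissociated lung cells by droplet single-cell RNA sequencing of 3′ ends. There was 1 control library and 1 explosion library, both from fresh lung of animals kept specific pathogen free, with red blood cells lysed and dead cells removed from the suspension. Strain, sex, age, the number of animals behind a library and the time after the explosion were not given in the sources used here. With 1 library a group there is no replicate check and no test, and exposure, animal and library cannot be told apart. Every interval below is at 95% and covers counting error only.

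CC chemokines are small secreted proteins that draw leukocytes along a gradient by engaging receptors coupled to G proteins. CCL2 and CCL7 engage CCR2 and call classical monocytes out of bone marrow and into tissue, whereas CX3CR1, the receptor for fractalkine, marks nonclassical monocytes that patrol vessel walls and some tissue macrophages. CCL3 and CCL4 are released by activated macrophages, monocytes and killer lymphocytes, and CCL3 engages CCR1. CCL20 is made by epithelium, engages CCR6, and draws dendritic cells, B cells and some T cells.

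RefSeq start sites were matched for 5 of the 8 genes, Ccl7, Ccl20, Ccr1, Ccr2 and Cx3cr1, on the GRCr8 build. The 250 bases before the start are printed for the epithelial ligand Ccl20 and for the receptors Ccr2 and Cx3cr1, whose patterns over monocyte clusters were opposite. Both strands were searched for the NF-kB consensus (by name), for the AP-1 letters TGANTCA and for the ETS core AGGAAG, and none of these motifs overlapped another in these windows. Capitals mark matches. The Ccl20 window lies at chr9:91836909-91837158 on the plus strand, the Ccr2 window at chr8:132611953-132612202 on the plus strand, and the Cx3cr1 window at chr8:128677067-128677316 on the minus strand.
Ccl20: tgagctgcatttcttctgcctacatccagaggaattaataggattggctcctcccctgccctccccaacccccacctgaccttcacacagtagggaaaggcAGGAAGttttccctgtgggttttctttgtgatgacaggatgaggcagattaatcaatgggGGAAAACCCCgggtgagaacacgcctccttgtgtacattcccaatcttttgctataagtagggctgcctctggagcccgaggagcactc
Ccr2: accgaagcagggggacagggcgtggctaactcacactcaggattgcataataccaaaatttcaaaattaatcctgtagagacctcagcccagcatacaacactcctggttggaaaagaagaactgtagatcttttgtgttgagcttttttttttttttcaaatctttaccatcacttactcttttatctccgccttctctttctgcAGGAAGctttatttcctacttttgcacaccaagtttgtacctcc
Cx3cr1: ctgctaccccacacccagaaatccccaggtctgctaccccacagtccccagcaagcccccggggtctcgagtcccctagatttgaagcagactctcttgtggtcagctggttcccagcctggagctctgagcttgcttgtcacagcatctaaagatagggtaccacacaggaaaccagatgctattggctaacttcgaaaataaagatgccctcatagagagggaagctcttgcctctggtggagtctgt
The Ccl20 window held an NF-kB match that starts 89 bases before the start site, which 3.54% of 33469 promoters of the same length hold. It also held an ETS core 149 bases before the start, a match that 29.5% of promoters have. The Ccr2 window held 1 ETS core, 44 bases before the start, and the Cx3cr1 and Ccr1 windows held none of these letters. The Ccl7 window (chr10:67513845-67514094, plus strand) held an AP-1 match 73 bases before the start, found in 6.34% of promoters, and ETS cores 232 and 60 bases before it. In the same annotation Ccl2 lies next to Ccl7 and Ccl3 next to Ccl4, and 3 genes, Ccr3, Ccr1l1 and Tarbp2-ps1, lie between Ccr1 and Ccr2. The motif matches were not tested against the expression values.

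The control library held 21117 barcodes with a median of 4917 UMIs, and the explosion library 12642 barcodes with a median of 538.5 UMIs; 85 barcode sequences occurred in both. After filters 19298 control and 11811 explosion cells were kept, and 5563 of the explosion cells had fewer than 500 UMIs. Cells were clustered without any of the 8 genes or other listed chemokine genes and named from marker lists. A class name thus does not rest on the 8 genes. Spn, named below among the adhesion genes, was 1 of the monocyte markers. The macrophage-like class was 45.9% of kept control cells and 16.6% of explosion cells, and the monocyte-like class 6.67% and 32.6%. Marco, a macrophage marker, was at 0 in the macrophage-like class of both libraries. It was also at 0 in monocyte-like, T-like, NK-like, secretory-like and mesothelial-like cells of both, so this is not particular to macrophage-like cells. Different clusters held most of a class in the 2 libraries: clusters 0 and 1 against 4 for macrophage-like, 11 against 2 for monocyte-like, 6 against 5 for T-like, 14 against 15 for B-like, 9 against 10 for mesothelial-like, and 3 and 8 against 16 for secretory-like cells. Monocyte-like cluster 7, NK-like and ciliated-like cells were shared.

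Levels are given as CPM, the UMIs of a gene per 1000000 UMIs of a class. An explosion over control ratio was called when it passed 2-fold and its interval excluded 1, for pairs with at least 10 UMIs over both libraries. The explosion library was shallower and its ratios lay higher for genes in general: the median gene had a ratio of 2.10 over all kept cells, 1.58 in macrophage-like, 1.36 in monocyte-like, 1.70 in T-like, 1.61 in B-like, 1.51 in NK-like, 1.53 in mesothelial-like, 2.72 among secretory-like and 1.30 for ciliated-like cells. The level that free RNA in the droplets would give was estimated from Scgb1a1, the main secreted protein of club cells, in classes that should lack it.

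Over all kept cells, 5 of the 8 genes were called higher in the explosion library and 1 lower, where the same rule called 49.2% of all genes higher and 5.15% lower. Ccr2 went from 4.78 to 98.5 CPM, a ratio of 20.6 [18.5 to 23], and Cx3cr1 from 1.62 to 20.3 CPM, a ratio of 12.5 [10.1 to 15.5]. Ccl7 went from 0.417 to 2.16 CPM on 50 and 18 UMIs (ratio 5.18), Ccl2 from 5.04 to 20.6 CPM (4.09), and Ccl3 from 129 to 279 CPM (2.16), close to the median gene. Ccl20 was the gene called lower, at 42.0 CPM in control and 4.56 CPM in the explosion library, 9.21-fold lower. Ccl4 (12.9 and 13.6 CPM) and Ccr1 (37.7 and 44.2 CPM) were not called. With each ratio divided by that of the median gene, 3 were called higher and 2 lower.

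These sums hold the change in cell makeup as well as levels within cells. The monocyte-like class supplied 60.1% of control Ccr2 UMIs and 63.6% of explosion ones, and 57.2% and 77.5% of those of Cx3cr1. For Ccl3 the main source by UMIs differed: macrophage-like cells held 71.6% in control and 16.4% in the explosion library, and monocyte-like cells 12.9% and 59.6%. Macrophage-like cells held most Ccr1 in both libraries (90.3% and 81.3%), and secretory-like cells most Ccl20 (90.1% and 65.8%). In dissociated tissue more cells of a type captured and more cells present cannot be told apart.

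**Figure D1:**
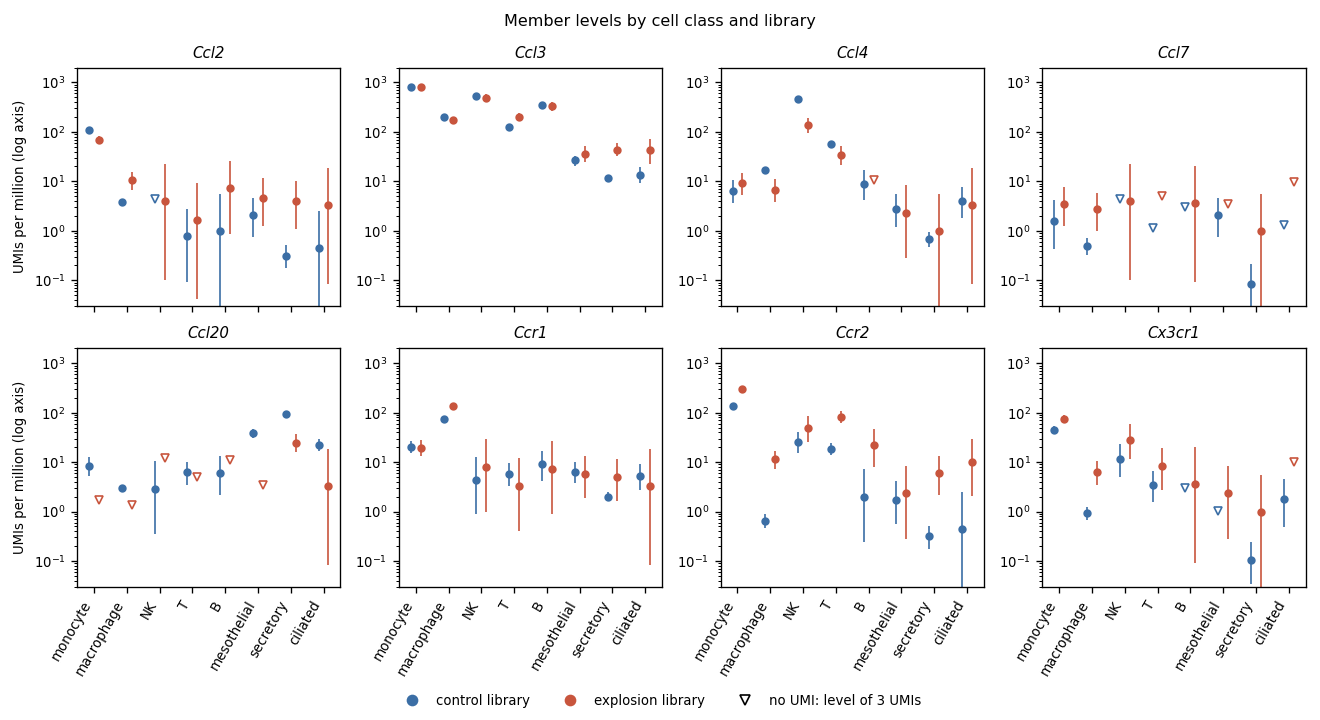
CPM of each of the 8 genes (panels, log axis) in the 8 compared classes, control and explosion side by side; points are class sums, bars exact 95% Poisson intervals, and open triangles mark the level of 3 UMIs where none was seen. Ccl3 was highest in monocyte-like cells of both libraries (807 and 803 CPM), Ccl4 in NK-like cells (461 and 139 CPM), and Ccl20 in secretory-like cells (95.5 and 24.9 CPM).

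Compared were the 8 classes with 200 or more cells on both sides. There 64 pairs of gene and class could be formed and 43 had enough UMIs. Of these, 10 were called higher in the explosion library and 7 lower. Among all genes the same rule called 14.8% to 42.6% higher and 4.33% to 11.2% lower, depending on the class. Divided by the class median the calls became 7 higher and 10 lower, and with CPM taken without Scgb1a1, ribosomal protein genes, Rn45s and mitochondrial genes 9 and 9. Leaving out pairs that did not stand above the free RNA level in their higher library left 7 higher and 5 lower. The lower ones left include Ccl20 paired with the ciliated-like and the secretory-like class, for which no free RNA level was computed. Which direction had more calls depended on the scaling.

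Ccl3 encodes an attractant of monocytes and macrophages. It stood at 807 CPM [772 to 843] in control monocyte-like cells and at 803 CPM [761 to 846] in explosion ones, a ratio of 0.994 [0.928 to 1.07]. In NK-like cells it was 532 and 489 CPM (ratio 0.918), in B-like cells 349 and 334 CPM (0.955), in macrophage-like cells 202 and 174 CPM (0.861), and in T-like cells 124 and 201 CPM (1.63). Ccl3 was called in none of these 5 classes, although the sum over all cells was. In B-like cells, where 22.9% of genes were called higher and 6.7% lower, Ccl3 and Ccr1 alone had enough UMIs, and neither was called. In control the Ccl3 order ran from monocyte-like through NK-like, B-like and macrophage-like to T-like cells. Neutrophil-like cells, at 493 CPM [430 to 563], overlapped NK-like cells. In the explosion library macrophage-like and T-like intervals overlapped. In cells thinned to 500 UMIs, Ccl3 was seen in 27.2% of control and 23.8% of explosion monocyte-like cells, in 17.4% and 17.6% of NK-like cells, and in 8.67% and 6.98% of macrophage-like cells. Mesothelial-like cells at the same 500 UMIs showed it in 0.820% and 2.35%, which serves as a level for cells that should lack it. Before thinning the monocyte-like shares were 50.2% and 26.1%. After thinning, cluster 7 was a larger part of explosion than of control monocyte-like cells. The thinned monocyte-like shares thus set different cluster mixes side by side.

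Ccl3 was called higher in 2 epithelial classes. In secretory-like cells it went from 11.6 to 43.9 CPM (551 and 44 UMIs), a ratio of 3.78 [2.72 to 5.15], where 42.6% of all genes were called higher and 4.33% lower. The free RNA level of Ccl3 there, read from the leukocyte gene Tyrobp, was 22.7 CPM in the explosion library. In ciliated-like cells it went from 13.7 to 42.8 CPM, a ratio of 3.12 on 31 and 13 UMIs, where 14.8% were called higher and 11.2% lower, and this level did not stand above that of free RNA. In the secretory-like class 12 of 17 tested monocyte markers were also called higher and 1 lower, while their summed level was 1772 CPM in control and 1090 CPM in the explosion library. Their part in the Ccl3 ratio was not tested. Over the class median the secretory-like call was lost.

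Among macrophage-like cells Ccl3 varied by cluster. In control it was 687 CPM in cluster 20 and 586 CPM in cluster 23, which C1qa, C1qb and C1qc led, against 208, 161 and 102 CPM in clusters 0, 27 and 1. In cluster 23 it was 270 CPM in the explosion library, 2.17-fold lower, where 18.6% of genes were called higher and 8.05% lower. In cluster 4, with 113 control and 1719 explosion cells, it was 142 and 166 CPM and not called. Ccl3, Ccl4, Ccr1 and Ccr2 alone had enough UMIs there and none was called, beside 10.7% of genes higher and 5.01% lower. Monocyte-like cluster 7, which Fcnb and MHC class II genes led, held 323 CPM in control and 548 CPM in the explosion library (1.70). The Pou2f2-expressing pair, cluster 11 in control and cluster 2 in the explosion library, held 1154 and 966 CPM (0.837).

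Ccl4, the neighbour of Ccl3 and likewise an attractant of leukocytes, was highest in NK-like cells of both libraries. It stood at 461 CPM [412 to 515] in control on 319 UMIs and at 139 CPM [95.9 to 194] in the explosion library on 34 UMIs, 3.33-fold lower [2.33 to 4.89]. In NK-like cells 19.7% of all genes were called higher and 5.27% lower. Thinned to 500 UMIs, 19.2% of control and 8.16% of explosion NK-like cells showed Ccl4, against 0.0578% of control secretory-like cells and 0 of 668 explosion ones (up to 0.551% by an exact interval). Before thinning the NK-like shares were 39.8% and 7.14%. Of 12 NK markers in this class 4 were called lower and 0 higher, and their summed level was 12805 and 8384 CPM. Their part in the lower Ccl4 was not tested.

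In macrophage-like cells Ccl4 was 17.1 CPM in control and 6.83 CPM in the explosion library (945 and 15 UMIs), 2.51-fold lower, where 31.4% of all genes were called higher and 5.52% lower. The T-like level was 56.4 and 34.7 CPM, a ratio of 0.615 that was not called. Monocyte-like cells held little in either library, 6.42 and 9.25 CPM on 16 UMIs each. In cluster 23 Ccl4 stood at 171 CPM on 72 UMIs in control and 10.8 CPM on 1 UMI in the explosion library, 15.8-fold lower. Read as UMIs of Ccl3 per UMI of Ccl4, which needs no library total, the value was 1.15 [0.990 to 1.34] in control and 3.53 [2.39 to 5.33] in explosion NK-like cells. In T-like cells it was 2.2 [1.80 to 2.69] and 5.81 [3.64 to 9.72], and in macrophage-like cells 11.8 [11 to 12.6] and 25.4 [15.2 to 45.8]. The intervals of the 2 libraries did not overlap in these 3 classes. In monocyte-like cells, at 126 [77.2 to 220] and 86.8 [53.3 to 152], they did.

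**Figure D2:**
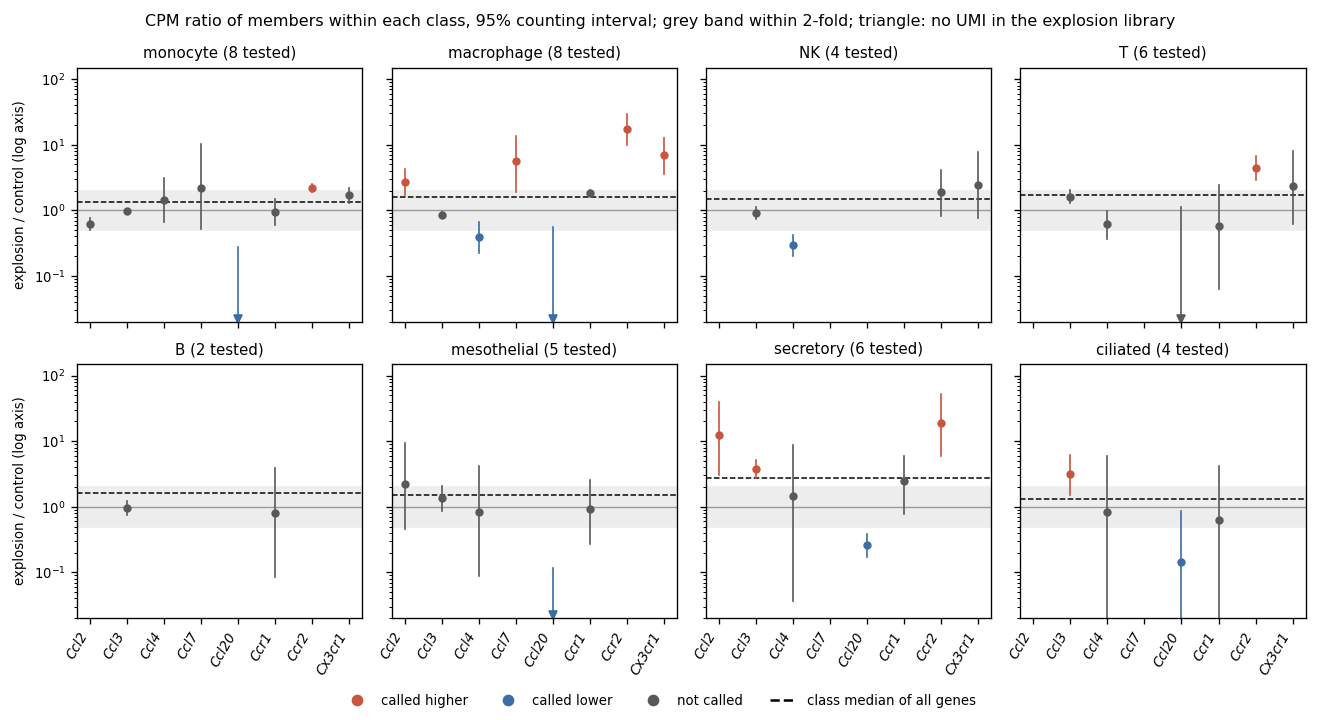
Explosion over control CPM ratio (log axis) of each tested gene in each compared class (panels) with exact 95% intervals; red points were called higher, blue lower and grey not called, the grey band lies within 2-fold, the dashed line is the median gene and triangles had no explosion UMI. Ccl4 in NK-like cells lies below 1 (3.33-fold lower) while Ccl3 in the same cells lies near 1 (0.918).

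Ccl2, the main CCR2 ligand, was highest of the compared classes in monocyte-like cells, which held 45.8% of its UMIs in control and 69.8% in the explosion library. They stood at 111 CPM [98.5 to 125] in control and 69.3 CPM [57.5 to 82.9] in the explosion library, on 277 and 120 UMIs, a ratio of 0.624 that was not called although Ccl2 over all cells was called higher. In fibroblast-like cluster 17 it was 131 CPM in control and 24.2 CPM in the explosion library on 46 and 7 UMIs, 5.42-fold lower, where 21.7% of genes were called higher and 11.1% lower; 14 of the 46 control UMIs sat in 1 cell. In macrophage-like cells it went from 3.84 to 10.5 CPM (212 and 23 UMIs), a ratio of 2.73 that was called higher. Cluster 23 made up 1.42% of this class in control and 8.81% in the explosion library, and it held 128 and 184 CPM. Without cluster 23, a choice made after seeing the data, the macrophage-like level was 2.89 and 2.85 CPM, a ratio of 0.989, where 29.9% of genes were called higher and 5.56% lower. Secretory-like cells held 15 and 4 UMIs, a called ratio of 12.6 that did not stand above free RNA.

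Ccl7, the neighbour of Ccl2 and a second CCR2 ligand, was the scarcest of the 8, with 50 control and 18 explosion UMIs. Macrophage-like cells held 0.489 and 2.73 CPM on 27 and 6 UMIs, a called ratio of 5.59, which was 1.53 and not called without cluster 23. Within cluster 23 it stood at 23.7 and 54.0 CPM. Monocyte-like cells held 4 and 6 UMIs and were not called.

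Ccl20, the epithelial ligand of CCR6, was a gene of secretory-like cells. It was 95.5 CPM in control and 24.9 CPM in the explosion library on 4538 and 25 UMIs, 3.83-fold lower [2.59 to 5.93]. In control it stood at 267 CPM in cluster 8, which Scgb3a1, Bpifa1 and Muc5b led, with a UMI in 15.7% of cells, at 89.8 CPM in cluster 18 and at 11.2 CPM in cluster 3. In the explosion library cluster 16 held most secretory-like cells and stood at 20.9 CPM, so the class comparison sets different clusters side by side. By the marker scores used for naming, cluster 16 was at 1.78 for secretory and 1.53 for type 2 alveolar markers. Cluster 18 was at 3.06 for secretory and 2.97 for ciliated markers. Cluster 8 had 1039 control and 37 explosion cells. Thinned to 500 UMIs, 2.17% of control and 0.599% of explosion secretory-like cells showed Ccl20, against 0.182% of control mesothelial-like cells; before thinning the secretory-like shares were 9.39% and 1.80%.

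Few cells carried it. In control the 193 cells with the most Ccl20, the top 1%, held 94.9% of its UMIs, and 1 cell held 249. Among secretory-like cells 86.3% of the control UMIs sat in 62 cells, and the 25 explosion UMIs in 13 cells. The interval of the secretory-like ratio takes UMIs as independent and does not cover this clumping. The 20 richest cells held 51.6% of all control Ccl20, against 38% for Ccl2, 19.3% for Ccr2, 15.1% for Ccl4, 14.4% for Cx3cr1, 3.2% for Ccl3 and 2.5% for Ccr1. Ciliated-like cells were called lower, at 22.6 and 3.30 CPM on 51 and 1 UMIs. Of the 51 control UMIs 62.7% sat in 2 cells. This call was lost in cells thinned to 500 UMIs and with a minimum of 500 UMIs a cell. Mesothelial-like cells went from 38 CPM on 109 UMIs to 0 UMIs, at least 8.67-fold lower by the interval. There 26.8% of genes were called higher and 9.99% lower. Of the 109 UMIs 103 were in 1 cell, and the call was lost without it. Macrophage-like cells (167 and 0 UMIs) and monocyte-like cells (21 and 0 UMIs) were called lower at control levels that did not stand above free RNA. Of the 21 UMIs 13 were in 1 cell, and the monocyte-like call was lost without it. In control neutrophil-like cells 113 UMIs gave 253 CPM, all from 4 cells.

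**Figure D3:**
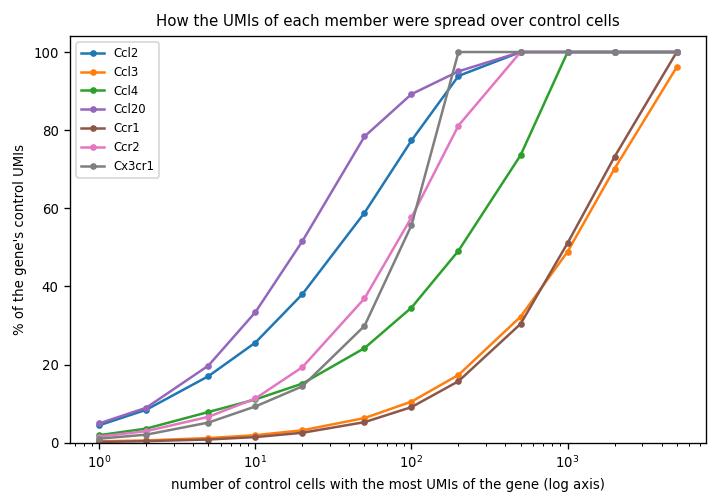
Cumulative share of the control UMIs of 7 genes (y axis, percent; Ccl7 left out) held by their richest control cells (x axis, number of cells, log axis). The 20 richest cells held 51.6% of Ccl20 UMIs and 2.5% of Ccr1 UMIs.

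Ccr1, the receptor of CCL3 and CCL7 on macrophages and neutrophils, was a macrophage-like gene. It stood at 74.0 CPM [71.8 to 76.3] in control and 136 CPM [121 to 153] in the explosion library, on 4086 and 299 UMIs. The ratio of 1.84 [1.63 to 2.07] was not called and lay near the class median of 1.58. Monocyte-like cells were at 20.5 and 19.6 CPM, and control neutrophil-like cells at 134 CPM [103 to 173]. Thinned to 500 UMIs, 3.89% of control and 6.87% of explosion macrophage-like cells showed it, against 0.116% and 0.449% of secretory-like cells; before thinning the macrophage-like shares were 32.5% and 12.7%. In cluster 4, which both libraries hold, it was 135 and 140 CPM on 21 and 282 UMIs, a ratio of 1.04 [0.664 to 1.70]. This cluster had 1719 explosion cells but 113 control cells. Those control cells had a median of 810 UMIs, against 5802 in the control macrophage-like class.

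Ccr2, the receptor that brings classical monocytes into tissue, was highest of the compared classes in monocyte-like cells. It went from 138 CPM [124 to 154] on 345 UMIs to 302 CPM [276 to 329] on 522 UMIs, a ratio of 2.18 [1.90 to 2.50], where 24.9% of genes were called higher and 8.31% lower. The call stood just past 2-fold: it was 1.93 with the abundant genes left out of CPM and 1.60 over the class median, and 6.64 with cells thinned to 500 UMIs. That thinning kept 720 cells of cluster 7 among 1046 explosion monocyte-like cells, and 311 among 1288 in control. Within cluster 7 the level was 322 and 748 CPM, a ratio of 2.32 that was called, where 26.6% of genes were called higher and 8.04% lower. Over the whole class thinned cells with a Ccr2 UMI were 3.49% and 20.3%, and unthinned ones 13% and 9.22%; secretory-like cells at 500 UMIs showed 0.0578% and 0.299%. In cluster 7 thinned cells with a Ccr2 UMI were 13.5% of control and 28.9% of explosion cells. In the Pou2f2-expressing pair, cluster 11 in control and cluster 2 in the explosion library, Ccr2 was 9.03 and 18.9 CPM (2.10, not called), where 22.5% of genes were called higher and 9.22% lower.

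Outside monocyte-like cells, Ccr2 in T-like cells was 18.5 and 82.6 CPM on 48 and 50 UMIs, a ratio of 4.45 [2.94 to 6.76], where 31.6% of genes were called higher and 5.7% lower. Thinned T-like cells showed it in 0.823% and 3.22%. In macrophage-like cells it was 0.652 and 11.4 CPM on 36 and 25 UMIs, a ratio of 17.5 [10.0 to 29.9]. The free RNA level for it there was 7.18 CPM in the explosion library. Without cluster 23 the ratio was 13, at an explosion level of 7.61 CPM on 16 UMIs, about that of free RNA, and in thinned cells the level did not stand above free RNA. In this class 13 of 18 monocyte markers were also called higher and 0 lower, while their summed level was 35345 and 20749 CPM. Their part in the ratio was not tested. Within cluster 23 Ccr2 was called higher, at 9.49 and 97.2 CPM on 4 and 9 UMIs, a ratio of 10.2 [2.86 to 45.5]. There 18.6% of genes were called higher and 8.05% lower. In NK-like cells Ccr2 was 26.0 and 48.9 CPM and not called, and in secretory-like cells 15 and 6 UMIs gave a called ratio that did not stand above free RNA.

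Cx3cr1 followed the other monocyte-like clusters. Over the class it was 44.6 CPM [36.7 to 53.7] in control and 75.7 CPM [63.3 to 89.8] in the explosion library, on 111 and 131 UMIs, a ratio of 1.70 [1.31 to 2.21] that was not called. In cluster 11 it was 63.2 CPM and in cluster 2 it was 106 CPM (1.68), whereas cluster 7 held 19.4 and 26.8 CPM. Ccr2 was thus higher in cluster 7 and Cx3cr1 higher in clusters 11 and 2, in each library. Macrophage-like cells went from 0.924 to 6.38 CPM on 51 and 14 UMIs, a called ratio of 6.90. The call was lost in cells thinned to 500 UMIs. Without cluster 23 the ratio was 4.34 [1.10 to 12.6] on 24 and 4 UMIs, at an explosion level of 1.90 CPM. The free RNA level for Cx3cr1 in the whole class was 1.48 CPM in the explosion library. Cluster 23 itself held 64.0 and 108 CPM. NK-like cells, at 11.6 and 28.5 CPM, were not called (2.46).

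**Figure D4:**
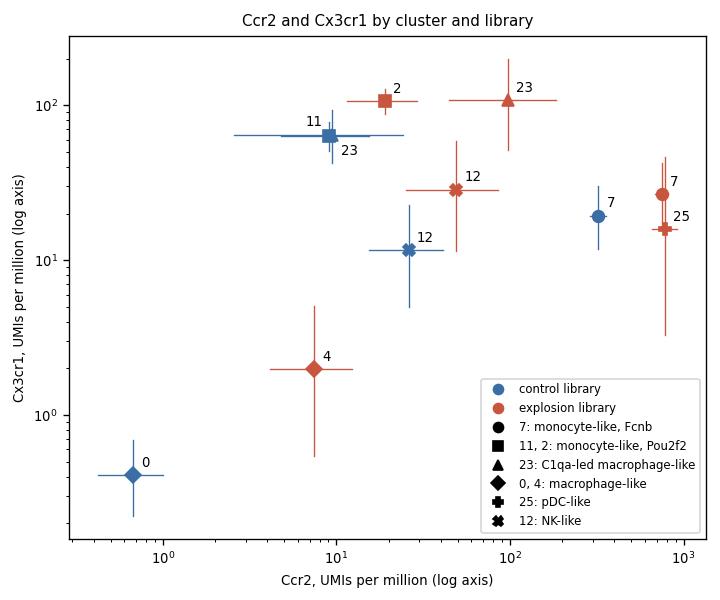
Ccr2 CPM (x axis) against Cx3cr1 CPM (y axis) (log axes) in chosen clusters, control in blue and explosion in red, with exact 95% Poisson intervals. Monocyte-like cluster 7 lies at high Ccr2 (322 and 748 CPM) with low Cx3cr1, and clusters 11 and 2 at high Cx3cr1 (63.2 and 106 CPM) with low Ccr2.

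Detection of 2 genes in the same cell was compared at 500 UMIs a cell, each pair of genes once in each library. In 9 of these comparisons the second gene was seen more often in cells with the first, with intervals that did not overlap. Comparisons in which it was seen less often were not counted. The count is over kept cells of all classes together, and the part of cell class in it was not tested. How often other gene pairs pass the same rule was not computed. In thinned control cells Ccl3 was seen in 25.4% of cells with a Ccl4 UMI and 7.60% of cells without, and in 25% of cells with Ccl2 against 7.72% without. In the explosion library Ccl3 was seen in 42.5% of cells with Cx3cr1 and 8.55% without, and Ccr2 in 21.7% of cells with Ccl2 and 4.96% without. Among explosion monocyte-like cells Ccl3 was seen in 60% of those with Cx3cr1 against 22.9% without, and in 15.6% of those with Ccr2 against 25.9% without. No explosion monocyte-like cell of 212 with Ccr2 also showed Cx3cr1, which allows up to 1.72%, against 3.00% of those without Ccr2. These are cells of 1 library and are no replicates of a condition.

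**Figure D5:**
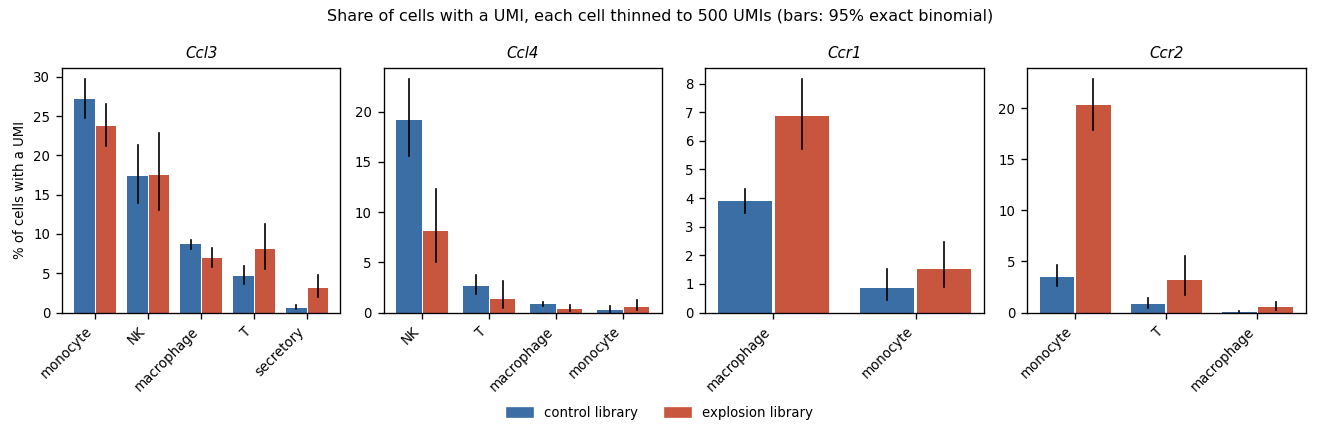
Percent of cells with a UMI (bars from 0, y axes differ) of Ccl3, Ccl4, Ccr1 and Ccr2 in chosen classes after thinning each cell to 500 UMIs, with exact 95% binomial intervals, control in blue and explosion in red. Ccl3 is in 27.2% and 23.8% of monocyte-like cells and Ccl4 in 19.2% and 8.16% of NK-like cells. Thinning left different cluster mixes among control and explosion monocyte-like cells.

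Members were also called in 2 smaller shared clusters. In cluster 19, which cell cycle genes such as Mki67 and Top2a led, 23.8% of genes were called higher and 7.7% lower. Members called there were Ccl4 (26.1 and 54.0 CPM on 54 and 16 UMIs, a ratio of 2.07), Ccr2 (1.93 and 27.0 CPM on 4 and 8 UMIs) and Ccl20 (7 and 12 UMIs), with all 12 explosion UMIs of Ccl20 in 1 cell. In endothelial-like cluster 21, where 16.7% were called higher and 10.4% lower, Ccl3 was called higher, a ratio of 2.99 on 14 and 13 UMIs. Ccr1 was called lower there on 16 and 0 UMIs, with an interval of the ratio that reaches 0.836.

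Over 25 control clusters that share 1 library, the genes whose log2(CPM + 10) moved most like each member were taken among 11467 genes, as a description. For Ccl3 these were Nckap1l, Fmnl1, Map4k1, Cd53 and Evi2b (Pearson r up to 0.931), for Ccl4 Prdm1, Ada, Nkg7, Ptpn7 and Prf1 (up to 0.899), and for Ccl2 Cadm3, Icoslg, Zcchc24 and Zfp703 among the first 5 (up to 0.856). For Ccl20 they were Muc20, Clca1, Sfxn5, Gp2 and Lgi2 (up to 0.921), for Ccr1 Ccl6, Cd33, Mrgprx3, Lta4h and Mcemp1 (up to 0.941), for Ccr2 Cst7, Slamf7, Sh3bp1, Cdh17 and Nr4a2 (up to 0.811), and for Cx3cr1 Adgre1, C3ar1, Pld4, Itgam and Clec4a1 (up to 0.951). Ccl7 had too few UMIs.

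Of the other listed chemokines (further CC ligands, Xcl1 and Cx3cl1), 4 of 8 tested in macrophage-like cells were called higher and 0 lower (31.4% and 5.52% of all genes), with Ccl24, which draws eosinophils, at 3.66 and 26.0 CPM. In monocyte-like cells, where 24.9% of all genes were called higher and 8.31% lower, 2 of 6 were higher, Ccl24 and Ccl9 (21.7 and 49.1 CPM), and 3 were lower: Ccl17 (22.5 and 6.36 CPM, 3.54-fold lower) and Ccl22 (14.5 and 5.20 CPM), both ligands of CCR4, and Ccl5 (128 and 45.1 CPM, 2.83-fold lower), which draws T cells and monocytes. Ccl24 in monocyte-like cells rested on 2 and 24 UMIs. Ccl5 stood at 347 CPM over all kept explosion cells, above its monocyte-like level. No free RNA level was computed for genes outside the 8. The 6 chemokines tested in monocyte-like cells had a median log2 ratio of -0.99, against 0.50 for all genes tested in that class. Against the same shares, of the other chemokine receptors 3 of 7 were called higher in macrophage-like cells and 0 lower, with the scavenging receptor Ackr4 (4.95 and 38.3 CPM) among them. In monocyte-like cells 2 of 8 were higher, with Ackr1 (3.61 and 9.82 CPM) among them, and 1 was lower, Ccr6, the CCL20 receptor (27.3 and 8.09 CPM, 3.37-fold lower).

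Beside 31.4% of all genes called higher in macrophage-like and 24.9% in monocyte-like cells, genes that relay chemokine receptor signals were called higher for 10 of 23 in macrophage-like cells, with Ptk2b (130 and 611 CPM), Arrb1 and Pik3cd, and 0 lower, a median log2 ratio of 0.73 against 0.75 for all genes. In monocyte-like cells 7 of 23 were higher, Ptk2b among them, and 1 was lower, Rgs18. Of the adhesion and survival genes of monocytes, 9 of 18 were called higher in macrophage-like cells (Itgam and Spn among them) and 5 of 17 in monocyte-like cells, with Csf1 and Icam1 among them, and 1 lower, Cd99; the monocyte-like share is near that of all genes. Over all cells the most abundant of the other chemokines were Ccl5 (292 and 347 CPM) and Ccl6 (182 and 120 CPM). Among the signalling genes Gnai2 was the most abundant in both libraries (473 and 678 CPM).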

How the data were processed

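Lung cells of 1 control and 1 explosion library were analysed from the matrices of UMI counts that the authors deposited. The submitters' processing notes name bcl2fastq 2.20 and Cell Ranger 6.1.1 with the builds mRatBN7.2 and rn6, whereas the file headers name cellranger 7.1.0; which build gave the counts was not settled. Barcodes with under 200 genes or over 25% mitochondrial UMIs (21 and 12 control, 192 and 8 explosion) and called doublets (8.47% and 5.07%, below the 16.9% and 9.95% that loading would give) were removed. Cells were clustered with scanpy 1.11.5 (2000 variable genes, 30 components, 15 neighbours, Leiden resolution 1 through python-igraph 0.11.9); classes with at least 200 cells in each library were compared. Intervals are exact Poisson, conditional Poisson or binomial (scipy 1.17.1). The call and the counting script were tested on simulated data. For secretory-like and ciliated-like cells the free RNA level came from Tyrobp, chosen after seeing the data, and was not computed there for Ccl20. Thinning drew 500 UMIs a cell and left out shallower cells. The figures and the text name the 8 genes, and from each other list up to 3 called genes a direction in macrophage-like and monocyte-like cells and the 2 most abundant. The members, lists and tests were chosen with earlier results of these data known. Alternatives covered filters, doublets, thinning, clustering, scaling, UMI minimum and call size. Sequences are from RefSeq (GRCr8). A few genes that the naming rule selects are not reported here.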

Additional observations from a re-analysis of the deposited data

Results flagged for a closer look

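Some genes were called higher in 1 cell group and lower in another, so that the single explosion library lay above control in one and below it in the other; these differences were not tested. The Ccl2 ratio was 2.73 in macrophage-like cells and 0.185 in cluster 17. Without cluster 23 the macrophage-like ratio was 0.989, and within cluster 23 it was 1.43 and not called. In cluster 17 it rested on 46 and 7 UMIs, with 52.2% of the control UMIs in 2 cells. The Ccl3 ratio was 3.78 in secretory-like cells, where the explosion level was 43.9 CPM and the free RNA level 22.7 CPM, and 0.461 in cluster 23. The Ccl4 ratio was 2.07 in cluster 19, which cell cycle genes led, and 0.0632 in cluster 23. The Ccl20 ratio was 12 in cluster 19, where all 12 explosion UMIs were in 1 cell, and 0 in cluster 2 of the explosion library over cluster 11 of control, where 13 of 17 control UMIs were in 1 cell.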

How the results depend on the processing

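No paired analysis was possible because each group has 1 library. The 10 pairs called higher and 7 called lower became 6 and 4 with cells thinned to 500 UMIs, which left 7 classes to compare. Over all kept cells the 5 genes called higher and 1 called lower became 3 and 2 with each ratio over that of the median gene. Over both libraries, comparisons of a member pair with higher co-detection and separate intervals numbered 9 in thinned and 16 in unthinned cells. Both counts are over all classes together, with no share for other gene pairs beside them. The Ccl2 ratio in macrophage-like cells turned to 0.989 without the C1qa-led cluster, an alternative chosen after seeing the data. The causes were not tested. Under the other alternatives run, pairs called higher ranged from 7 to 13 and pairs called lower from 5 to 10. Depth limits what could be compared: 21 of 64 pairs had fewer than 10 UMIs, and an explosion median of 532 UMIs a kept cell leaves shares of cells low.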

Other observations

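Ccr2 was also high outside the compared classes. In pDC-like cells it stood at 474 CPM [380 to 584] on 88 UMIs in control and at 777 CPM [656 to 913] on 147 UMIs in the explosion library, above the monocyte-like class in both. In cluster 24, an unnamed cluster that Il1rl1 and Gata3 led, Ccr2 was 35.8 CPM in control and 391 CPM in the explosion library on 7 and 35 UMIs, and Cx3cr1 was at 0 UMIs in both libraries.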
